A study of Mus musculus with 24 samples.

Results

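The genes described here encode regulators of G protein signalling (RGS proteins). The members were Rgs1, Rgs2, Rgs3, Rgs4, Rgs5, Rgs10, Rgs16 and Rgs19, taken as every probe set that the array annotation gave to one of these genes and to no other gene. They came to 8 genes with 20 probe sets, out of 12394 genes with 20393 single-gene probe sets. Rgs5 was chosen by its difference between suspension and proliferating cells, the largest of the group, so its suspension values are a description and carry no test.

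RNA was measured on 24 Affymetrix mouse expression arrays from C2C12 cells, an established mouse myoblast line. Cells received siRNA against IFT88, a component of the intraflagellar transport machinery that builds the primary cilium, or a negative control siRNA. Each siRNA was studied in 4 culture states with 3 arrays each: proliferating (attached, 20% FBS), quiescent (in suspension, 20% FBS), replated (attached again for 2 h after suspension, 20% FBS) and differentiating (attached, 2% NHS for 48 h, started near confluence). The series title places the comparison in the question of how loss of cilia bears on myoblast quiescence. The labels do not say that replicates came from separate cultures, so p-values measure the spread between these arrays only. RNA came from whole cultures, in which fewer cells of a kind and less RNA per cell cannot be told apart.

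Receptors coupled to heterotrimeric G proteins act by loading a G alpha subunit with GTP, which frees it and the G beta-gamma pair to act on effectors. RGS proteins bind the active G alpha subunit and speed its GTP hydrolysis, which shortens the signal. Many are themselves induced by signalling, so they act as feedback brakes. Rgs2 is selective for Gq, whereas Rgs3, Rgs4, Rgs5 and Rgs16 act on Gi and Gq subunits. Rgs10 and Rgs19 act mainly on the Gi family, and Rgs1 is best known from lymphocytes. In tissue, Rgs5 marks pericytes and vascular smooth muscle.

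The annotated starts of Rgs5 and Rgs4 lie next to each other on chromosome 1, between Nuf2 and Ccdc190 in gene order, with Rgs5 on the plus strand and Rgs4 on the minus strand. Rgs2, Rgs1 and Rgs16 are also on chromosome 1, Rgs2 and Rgs1 being separated in gene order by Rgs13. The 250 bases before the RefSeq start (GRCm38.p6) are shown for Rgs5, Rgs2 and Rgs4, the members with the largest differences between suspension and proliferating cells, and for Rgs16, the member highest in differentiating cells. Sequences read 5′ to 3′ on the gene's own strand. Capitals mark TGACG (the half-site of the cAMP response element) or the TATA box letters TATAAA, searched on both strands.
Rgs5 promoter, chr1:169655251-169655500, plus strand: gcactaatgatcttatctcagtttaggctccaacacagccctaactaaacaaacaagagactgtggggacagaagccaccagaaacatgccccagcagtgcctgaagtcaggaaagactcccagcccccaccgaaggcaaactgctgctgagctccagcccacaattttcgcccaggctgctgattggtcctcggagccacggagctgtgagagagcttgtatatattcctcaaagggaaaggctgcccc
Rgs4 promoter, chr1:169747643-169747892, minus strand: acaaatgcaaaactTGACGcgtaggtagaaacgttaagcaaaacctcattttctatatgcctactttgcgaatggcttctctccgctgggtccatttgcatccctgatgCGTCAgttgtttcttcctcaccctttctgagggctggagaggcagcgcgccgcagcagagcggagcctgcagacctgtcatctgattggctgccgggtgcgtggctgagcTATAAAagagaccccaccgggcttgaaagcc
Rgs2 promoter, chr1:144004150-144004399, minus strand: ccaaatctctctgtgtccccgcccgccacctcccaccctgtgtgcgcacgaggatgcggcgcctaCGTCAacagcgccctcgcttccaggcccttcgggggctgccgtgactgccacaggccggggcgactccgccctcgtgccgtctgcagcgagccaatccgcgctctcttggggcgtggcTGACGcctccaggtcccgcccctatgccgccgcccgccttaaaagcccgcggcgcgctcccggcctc
Rgs16 promoter, chr1:153740103-153740352, plus strand: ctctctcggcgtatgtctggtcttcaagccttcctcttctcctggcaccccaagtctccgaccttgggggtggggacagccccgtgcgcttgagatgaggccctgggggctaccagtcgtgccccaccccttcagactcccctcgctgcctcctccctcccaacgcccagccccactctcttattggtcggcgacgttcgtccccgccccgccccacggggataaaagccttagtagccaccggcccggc

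Rgs4 and Rgs2 each held 2 matches to TGACG or its reverse complement CGTCA. In Rgs4 they lay 236 to 232 and 141 to 137 bases before the start, and the nearer one overlaps by 2 bases a match to the E box letters CANNTG. In Rgs2 they lay 185 to 181 and 67 to 63 bases before the start. At least 1 match was found in 17.8% of 32851 promoters of this length and at least 2 in 3.9%. The Rgs5 and Rgs16 windows held none. Rgs4 also held TATAAA on its own strand, 31 to 26 bases before its start. Of all promoters 1.99% held it on that strand between 40 and 16 bases before the start, and 12.4% held it anywhere in the window on either strand. Rgs2 held 4 GC boxes (GGGCGG), a number reached by 4.09% of promoters, while 32.7% held at least 1. None of the 6 motifs searched was matched in the Rgs5 window: besides the ones above, these were the AP-1 letters TGANTCA (held by 6.75% of promoters), the E box (66.2%) and the forkhead letters GTAAACA (3.17%). The search took exact letters only. The letters tatatat near the start in the Rgs5 window resemble TATAAA and were therefore not counted, so no match does not mean no TATA-like element. A match is a string of letters, and no binding was measured here. Of the 8 members 7 matched a RefSeq entry (not Rgs1), and Rgs3 and Rgs19 matched several starts.

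Levels are log2 expression values as deposited, and each probe set is compared only with itself across groups. The brightest probe set of a gene that is not marked by its name as prone to cross-hybridisation represents it. A gene was tested where that probe set exceeded the array's 40th percentile on at least 3 arrays, which 8598 genes did. Of the 8 members 7 passed. Rgs1 lay under that level on all 24 arrays, and the 8 group means, 0.80 to 1.28, overlapped with their neighbours in order. That percentile lay between 1.96 and 2.60 on every array, and values under it are called dim here.

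The array medians differed with the state. Replated arrays had medians of 2.92 to 2.98, whereas all other arrays had medians between 3.58 and 3.85. Values between states are therefore also given after quantile normalisation and after centring each array on its median, wherever a call or direction turned. Ift88 itself was lower with its siRNA by 0.52 in proliferating (adjusted p = 0.295), 0.69 in quiescent (adjusted p = 0.0113) and 0.59 in replated cells (adjusted p = 0.0535), and differed by -0.01 in differentiating cells (adjusted p = 0.999). With the replicate number as a block, the adjusted p was 0.0430 in proliferating and 0.0081 in replated cells. Every adjusted p here is from limma with Benjamini-Hochberg adjustment over the 8598 genes. Of 7 myoblast markers, Myod1, Myf5, Cdh15, Des, Itga7 and Chrna1 were above the filter level on every array and Pax7 was above it on none. Differentiation markers such as Myog, Acta1 and Myh3 were above it on every array as well.

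Rgs5 spanned 9.15 log2 units between its lowest and highest group mean. No other of the 8598 genes had as wide a range. Most of that range is the suspension difference by which Rgs5 was chosen, so the rank is a description and no separate result. In proliferating control cells the 3 arrays read 1.33, 1.43 and 1.33. In quiescent control cells they read 10.32, 9.59 and 10.33. In replated control cells they read 9.46, 9.0 and 9.58, and in differentiating control cells 1.01, 1.06 and 0.94. The gene was under the percentile level in proliferating and differentiating cells and bright in suspension and 2 h after replating, with no overlap. Against proliferating cells, quiescent control cells were higher by 8.72 (SE 0.18), or 8.57 after quantile normalisation and 8.50 after centring. Since the proliferating level is dim, no fold is given for it. The same difference between IFT88 siRNA groups was 7.74 (SE 0.18).

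The selection used that difference, so no member is tested there, and counts of genes in it are a description. Across this contrast, 71.3% of the 8598 genes differed at an adjusted p under 0.05 by limma. The other members' values in it are given with no test. Rgs2 was higher in suspension by 6.28 (SE 0.39), Rgs4 by 3.74 (SE 0.23) and Rgs3 by 2.11 (SE 0.13). Rgs10 was lower by 0.22 (SE 0.11), Rgs16 lower by 0.57 (SE 0.17) and Rgs19 lower by 0.87 (SE 0.11). The median over all genes was 0.14.

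Rgs2, the Gq-selective member, had the next widest range among the members, 6.28, which 38 genes of the table reached, itself included. In proliferating control cells it read 1.98, 2.90 and 4.06 and with IFT88 siRNA 2.69, 2.79 and 4.04, replicate 3 being the highest in both. Quiescent control arrays read 9.38, 9.05 and 9.35, and replated control arrays 6.56, 6.68 and 6.28. Differentiating control arrays read 4.38, 4.15 and 4.15. The control states did not overlap as deposited: suspension was highest, replated next, then differentiating and proliferating. With either other scaling the order was kept, and differentiating and proliferating arrays overlapped.

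Rgs4, a Gi and Gq regulator known from brain and heart, was highest in suspension. It read 5.56, 6.09 and 6.46 in quiescent control cells. Proliferating control arrays read 2.23, 2.47 and 2.19 and replated ones 2.30, 2.65 and 2.43, which overlap. In differentiating control cells it read 0.74, 1.16 and 1.04, under the percentile level. As deposited, replated and proliferating cells of both siRNAs were not separated from each other, while the quiescent groups lay above all others. After quantile normalisation and after centring, the 3 replated control arrays lay above the proliferating ones, by 0.63 and 0.81 on average.

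Rgs3, a regulator with several isoforms, was above the percentile level on every array. Proliferating control arrays read 5.20, 5.28 and 5.56, quiescent ones 7.35, 7.44 and 7.59, replated ones 6.97, 6.54 and 6.59 and differentiating ones 6.17, 6.13 and 6.41. These 4 states did not overlap as deposited, and with centring replated and quiescent arrays overlapped at the top. Rgs16, which many signals induce, ran in another order. It read 2.39, 2.07 and 2.63 in quiescent, 2.90, 2.81 and 3.10 in proliferating, 3.77, 3.65 and 4.15 in replated and 5.73, 5.60 and 5.96 in differentiating control cells. The 4 states did not overlap under any of the 3 scalings, and the quiescent values straddled the percentile level. Rgs19 was highest in proliferating control cells (6.20, 6.12 and 5.95) and lowest after replating (3.94, 3.77 and 3.75). Quiescent control arrays of Rgs19 read 5.13, 5.36 and 5.16 and differentiating ones 4.71, 4.98 and 5.02, which lie between and do not overlap each other as deposited, but do under both other scalings.

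Rgs10, a small regulator of Gi subunits, had the narrowest span of the 7 tested members, 1.42. It read 4.12, 3.97 and 3.88 in proliferating, 3.70, 3.79 and 3.84 in quiescent, 3.24, 3.46 and 3.31 in differentiating and 2.95, 3.07 and 2.65 in replated control cells. The control states did not overlap as deposited. Under both other scalings proliferating cells stayed highest, differentiating cells were lowest and replated arrays overlapped quiescent and differentiating ones. With IFT88 siRNA its highest group mean was 4.31 ± 0.07 (SD, n = 3), in proliferating cells, with arrays at 4.23, 4.35 and 4.35.

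**Figure D1:**
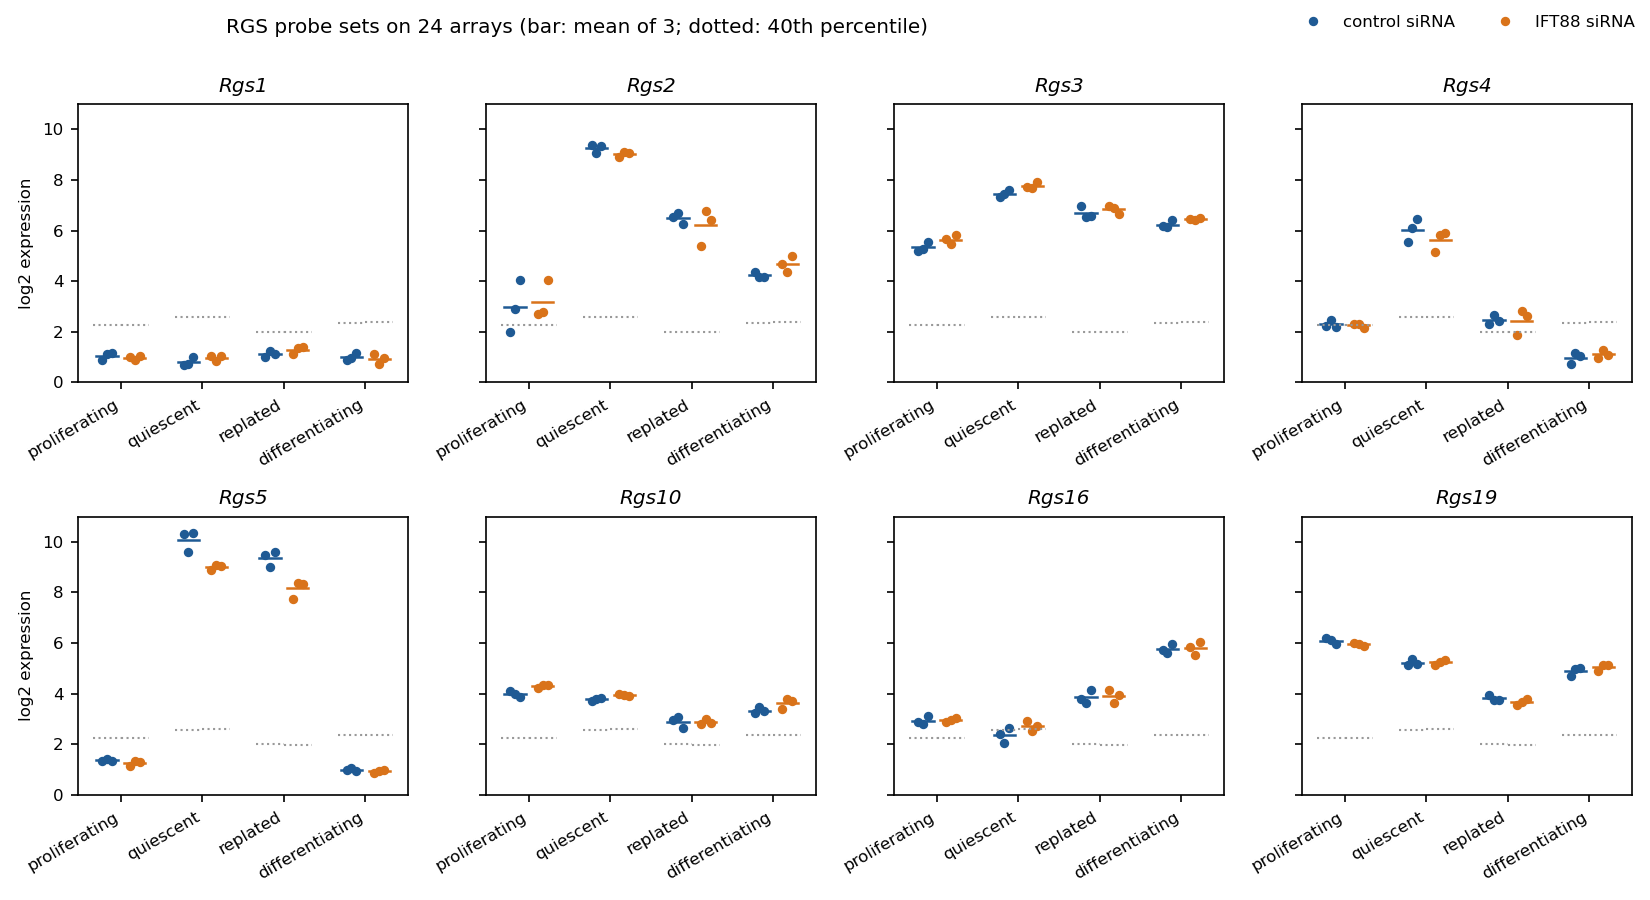
Log2 expression of the 8 RGS genes on each of 24 arrays, by culture state and siRNA; points are arrays, bars are means of 3 and dotted lines the highest 40th percentile of a group's arrays. Rgs5 reads 7.75 or higher in quiescent and replated cells and at 1.43 or lower in the other states.

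By 2 h after replating Rgs4 had fallen to the range of proliferating cells as deposited, and to a level above it under the other scalings. Rgs2 lay between its suspension and proliferating levels, and Rgs5 remained far above its proliferating level. In control cells, all 6 tested members changed between suspension and replating, in a comparison where 76.5% of all genes did. As deposited 66.9% of genes fell and 9.62% rose, with quantile normalisation 37.1% and 27.2%, and with centring 20.9% and 46.3%. The median over all genes was -0.61, so falls of that size are common to the table. The median moved to -0.10 with quantile normalisation and to 0.25 with centring. Rgs4 fell by 3.58 (SE 0.23, adjusted p = 1.92e-11), which is 11.9-fold, and Rgs2 by 2.76 (SE 0.39, adjusted p = 1.79e-06). Both falls kept their call under the other scalings, at -2.91 and -2.72 for Rgs4 and -2.38 and -1.90 for Rgs2. Rgs19 fell by 1.40 (adjusted p = 2.38e-10), and gave -0.66 and -0.54 under the other scalings, both called. Rgs16 rose by 1.50 (SE 0.17, adjusted p = 5.46e-08), to 2.26 and 2.35 under the other scalings, with all 3 replated arrays above the quiescent ones.

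Rgs10 and Rgs3 depended on the scaling. Rgs10 fell by 0.89 as deposited (adjusted p = 3.80e-07), but was -0.06 after quantile normalisation (adjusted p = 0.650) and -0.03 after centring (adjusted p = 0.821). Rgs3 fell by 0.76 as deposited (adjusted p = 1.78e-05), and centring gave 0.10 (adjusted p = 0.537). Rgs5 was lower by 0.73 (SE 0.18) as deposited, a difference not tested because the suspension arrays chose the gene, and centring turned it to 0.12. Its other 3 probe sets were lower by 0.90 to 1.95 as deposited.

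**Figure D2:**
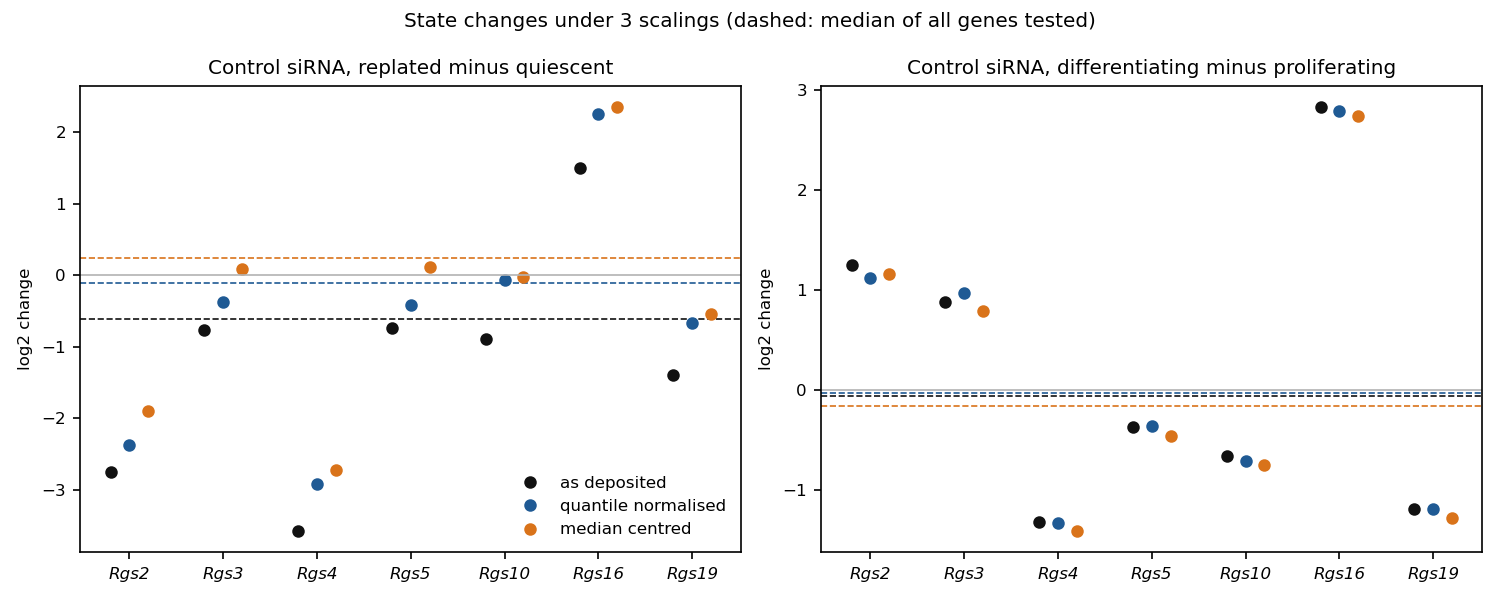
Log2 change of 7 RGS genes between replated and quiescent (left) and differentiating and proliferating (right) control cells, as deposited, after quantile normalisation and after median centring; dashed lines are the medians over all tested genes. Rgs4 and Rgs2 lie at -1.90 or lower in the left panel under each scaling, and Rgs16 at 1.50 or higher.

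After 48 h in low serum Rgs16, Rgs2 and Rgs3 rose and Rgs4, Rgs10 and Rgs19 fell. In control cells 6 of 6 tested members changed between proliferating and differentiating cells, where 54.8% of genes did (24.4% higher and 30.3% lower). Rgs16 rose by 2.83 (SE 0.17, adjusted p = 1.02e-11), from 2.94 ± 0.15 to 5.76 ± 0.18 (SD, n = 3). Rgs3 rose by 0.89 (adjusted p = 6.15e-06), but a second probe set of it above the percentile level gave 0.33 (adjusted p = 0.439 over 13874 probe sets). Another Rgs3 probe set, dim in both states, gave 0.37 (adjusted p = 0.0407 over 13874 probe sets). Rgs2 rose by 1.25 (SE 0.39, adjusted p = 0.0100), but without proliferating control replicate 1 the difference was 0.75 and its adjusted p was 0.101. The second Rgs2 probe set, also bright in suspension, gave 0.66 (adjusted p = 0.0960). Rgs4 fell by 1.31 (adjusted p = 5.30e-05), from a level near the percentile to one below it, Rgs19 by 1.18 (adjusted p = 8.33e-09) and Rgs10 by 0.66 (adjusted p = 4.43e-05). Rgs5 was lower by 0.36 (SE 0.18), not tested, between 2 dim states.

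Rgs5 was lower with IFT88 siRNA in the states where it was bright. In replated cells, control arrays read 9.46, 9.0 and 9.58 and IFT88 siRNA arrays 7.75, 8.38 and 8.35, with no overlap. Of 7 tested members, 1 changed, against 2.41% of all genes (0.907% lower). Rgs5 was lower by 1.19 (SE 0.18, adjusted p = 2.93e-04), or 2.28-fold. That SE shares 1 spread over all 8 groups. The Rgs5 SD was 0.31 in replated control and 0.35 in replated IFT88 siRNA cells, but 0.06 to 0.10 in the dim groups, so the SE understates the spread of the compared groups. Across the alternative fits, its adjusted p ranged from 6.84e-05 to 0.0434. The other 3 Rgs5 probe sets fell by 1.26 to 1.57, each with an adjusted p of at most 0.0016 over 13874 probe sets. These probe sets share the transcript and are not independent evidence.

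In quiescent cells the Rgs5 difference was close to that size. Control arrays read 10.32, 9.59 and 10.33 and IFT88 siRNA arrays 8.89, 9.10 and 9.04, all lower. The difference was -1.07 (SE 0.18), or 2.10-fold, with no test because these control arrays chose the gene. Of the other 6 members, 0 passed at an adjusted p under 0.05 in quiescent cells, against 5.2% of genes, and 2 had an unadjusted p under 0.05 (Rgs3 and Rgs16). With the replicate number as a block, 3 of 6 passed, against 13.6% of genes. These were Rgs3, higher by 0.31 (block adjusted p = 0.0254), Rgs4, lower by 0.40 (block adjusted p = 0.0280), and Rgs16, higher by 0.36 (block adjusted p = 0.0369). Without the block their adjusted p-values were 0.214, 0.422 and 0.276. The Rgs16 probe set used exceeded the percentile level on only 1 of 3 control and 2 of 3 IFT88 siRNA arrays in quiescent cells. The second Rgs16 probe set, dim there, differed by -0.01 (adjusted p = 0.994 over 13874 probe sets, without the block). Quiescent Rgs3 arrays read 7.71, 7.69 and 7.91 with IFT88 siRNA, all above the control values. Over the 4 states the Rgs3 probe set used was higher with IFT88 siRNA in 12 of 12 pairs of same-numbered arrays, by 0.011 to 0.46. That pattern was looked for after its values were seen. Other Rgs3 probe sets did not all share it. In proliferating, quiescent, replated and differentiating cells the next brightest differed by 0.25, 0.27, -0.07 and 0.43. A dimmer one differed by 0.16, -0.16, -0.04 and -0.03. Of all genes 1.49% were higher in every pair.

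With IFT88 siRNA, Rgs5 read 1.16 to 1.36 in proliferating and 0.86 to 1.0 in differentiating cells, under the percentile level as in controls. The difference in differentiating cells, between 2 dim groups, was -0.07 (SE 0.18, adjusted p = 0.999). In proliferating cells 0 of 6 tested members passed, against 0.361% of genes, and Rgs3 and Rgs10 had an unadjusted p under 0.05. Rgs10 was higher by 0.32 (adjusted p = 0.462) with all 3 IFT88 siRNA arrays above the controls, and it passed with array weights (0.36, adjusted p = 0.0232). In differentiating cells 0 of 7 passed, against 0.14% of genes, and Rgs10 (0.31, adjusted p = 0.789) had an unadjusted p under 0.05. Rgs4 and Rgs5 were dim on every differentiating array of both siRNAs, so their missing calls show little about IFT88 siRNA. The difference between the effects in 2 states was tested for 6 members in 4 pairings of states. None of the 24 passed by limma, the lowest adjusted p being 0.774 and, with the block, 0.239. Of all genes, 1.24% passed for quiescent and 0.361% for replated against proliferating cells, 0.0465% for differentiating against proliferating cells and 0.0582% for replated against quiescent cells. Rgs5 could not enter those tests, so whether its response differs between states was not tested.

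**Figure D3:**
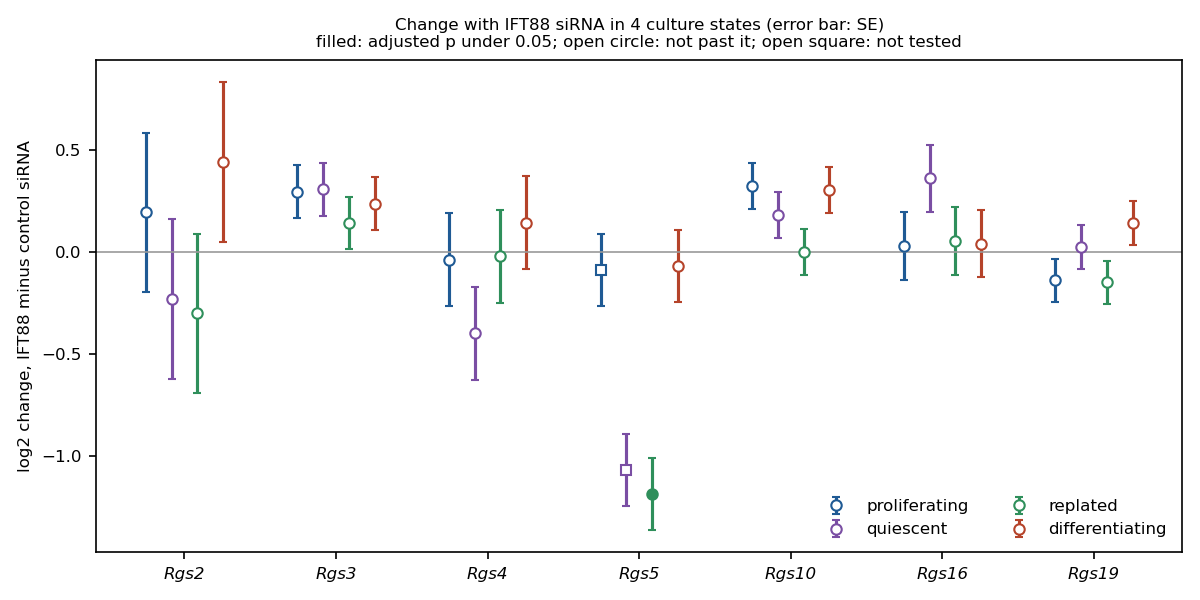
Log2 change with IFT88 siRNA against control siRNA for 7 RGS genes in 4 culture states, with the SE from limma; filled points passed an adjusted p of 0.05 and open squares were not tested. Rgs5 lies at -1.07 in quiescent and -1.19 in replated cells.

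Probe sets of the same gene differed in size and in some calls. All 4 Rgs5 probe sets were higher in quiescent and replated cells than in proliferating and differentiating ones. A second Rgs4 probe set was higher in suspension by 2.78 and lower on replating by 2.57, and the remaining one was dim. A second Rgs16 probe set was higher on replating by 0.58, against 1.50 for the one used, and the remaining one was dim. Of Rgs3, the probe set next to the dimmest was higher in suspension by 0.64, less than the 2.11 of the one used. The Rgs2 and Rgs3 rises in differentiating cells were called for the probe set used and missed the threshold for the next brightest one, whereas the second Rgs16 probe set rose there by 2.90. The Rgs3 probe set next to the dimmest, dim in both states, was called there with a rise of 0.37.

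**Figure D4:**
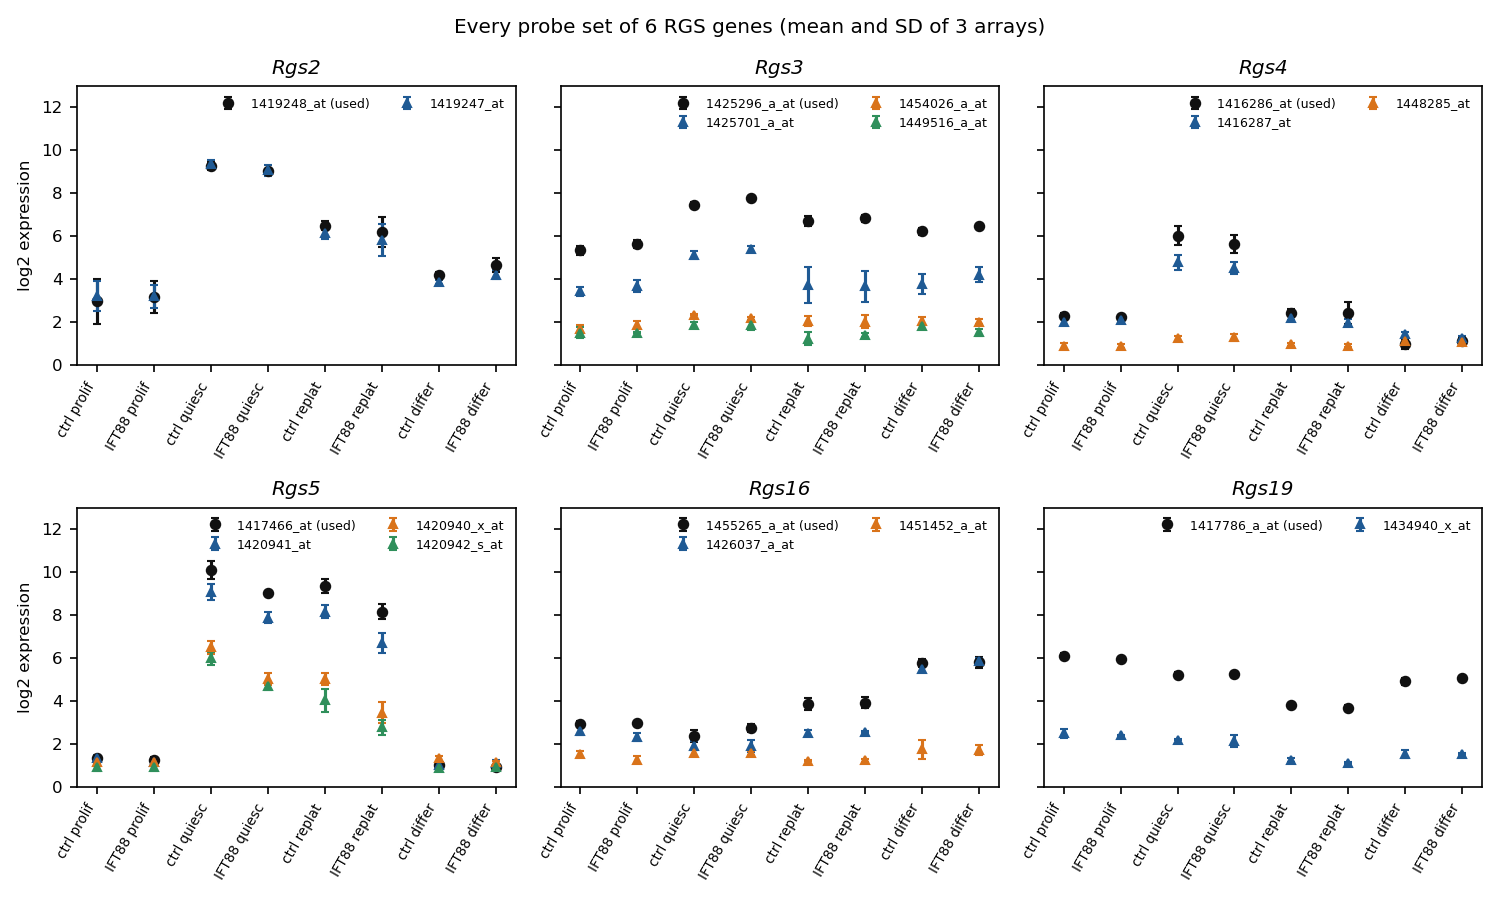
Mean and SD over 3 arrays of every probe set of 6 RGS genes in 8 groups; the circle is the probe set used for the tests. The 4 Rgs5 probe sets are all highest in the quiescent and replated groups.

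Genes with a pattern most like each member's were ranked by Pearson's r over the 24 arrays, among 5864 genes spanning at least 1 log2 unit. They share arrays and culture state, and r carries no p. For Rgs5 these were Slpi (0.996), Apoe (0.995) and Ndrg1 (0.994). Their differences with IFT88 siRNA are given with no test, since the likeness was measured on the same arrays. Slpi, a secreted protease inhibitor, was lower by 1.31 in quiescent and 1.26 in replated cells. Apoe, a lipid carrier, and Ndrg1, a stress-response gene, were lower by 0.43 and 0.27 in quiescent cells. For Rgs2 they were Galnt2, Pnrc1 and Slc12a5 (0.983, 0.982 and 0.981), and for Rgs4 Fam117b, Map3k1 and Ostf1 (0.989, 0.977 and 0.974). For Rgs16 they were Pmaip1, Midn and Bmp8a (0.966, 0.957 and 0.957). Rgs3 matched Colec12, Hsd17b11 and Matn2 (0.983, 0.971 and 0.969), and Rgs19 matched Sri, Mtmr2 and Xpo1 (0.986, 0.984 and 0.983). Nuf2, a kinetochore gene beside Rgs5, went the other way in suspension, lower by 4.03 in quiescent control cells, and was higher with IFT88 siRNA there by 1.02 (adjusted p = 5.76e-05).

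Markers of other cells were set beside Rgs5. Of 8 pericyte and smooth muscle markers, Kcnj8, Abcc9 and Myh11 were above the filter level on 0 of 24 arrays. The summed signal of that list ran from 3389 to 4183 in proliferating control cells and from 1707 to 1983 in quiescent ones. Most of that sum is Acta2, a smooth muscle actin. Its mean in control cells was 11.67 in proliferating, 10.38 in quiescent, 10.21 in replated and 12.22 in differentiating cells. The list summed to 5288 to 5673 in differentiating control cells, where Rgs5 was dim. Pdgfrb, a growth factor receptor of pericytes, read 8.34 in proliferating control cells, 8.50 in suspension and 9.02 after replating. In that order Cspg4, a pericyte proteoglycan, read 5.96, 5.86 and 7.82, Notch3 6.49, 6.46 and 5.72, and Mcam 3.97, 2.44 and 3.54. Members of the list thus went different ways where Rgs5 was bright. With IFT88 siRNA the list summed to 1835 to 2191 in quiescent cells. In replated cells it summed to 1980 to 2376 with IFT88 siRNA, against 1754 to 2322 in controls. Of 5 tested markers of the list, 1 was called higher with IFT88 siRNA in replated cells and 0 lower. Of 9 macrophage markers, Adgre1, Ptprc, Itgam, Lyz2, Fcgr1 and Tyrobp were above the filter level on 0 of 24 arrays, while Cd14, Cd68 and Csf1r were brighter in quiescent than in proliferating control cells. The list summed to 37.6 to 46.3 in proliferating, 293 to 294 in quiescent and 133 to 149 in replated control cells. With IFT88 siRNA it summed to 110 to 124 in quiescent and 63.4 to 74.6 in replated cells. Cd14 was lower with IFT88 siRNA by 1.54 in quiescent and 1.29 in replated cells, and Cd68 by 1.32 and 1.07. None of 5 endothelial markers was above the filter level on any array. In quiescent cells the 7 differentiation markers summed to 2916 to 4717 with IFT88 siRNA, against 1909 to 2868 in controls. In replated cells, where the Rgs5 difference was tested, they summed to 1781 to 2398 against 978 to 1421, and the 7 myoblast markers to 810 to 987 against 657 to 791. The 4 fibroblast markers on the array, of which Dpt was above the filter level on 0 of 24 arrays, summed to 38.3 to 53.2 in proliferating and 518 to 539 in quiescent control cells, and to 403 to 452 in quiescent IFT88 siRNA cells. Whether these lists have a part in the Rgs5 difference was not tested.

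The rest of the pathway was described by 7 lists, of which 72 genes were tested. In suspension, the cAMP response list stood highest, with a median of 2.09 against 0.14 over all genes. At an adjusted p under 0.05 by limma, 11 of 13 genes were higher and 0 lower. Under each other scaling 10 were higher. Of all genes 41.9% were higher and 29.4% lower as deposited, and 31.8% and 38.9% with centring. This comparison chose Rgs5, and the lists were made with earlier results of these data known. The counts and medians are therefore a description and no test of a list. The genes named from this comparison were picked after their values were seen. They include Nr4a1 (4.58) and Fos (4.49), transcription factors of the immediate response. The 11 receptors coupled to Gi or Gq had a median of 0.79, with Ptgfr, the prostaglandin F receptor, higher by 3.81. The 9 other RGS and RGS-like genes had a median of 0.41, with Rgs17 (2.79), Rgs11 (1.50) and Rgs9 (1.12) among the higher ones. Not every gene of these lists was higher. The medians of the remaining lists ran from -0.20 (receptor kinases, arrestins and G protein chaperones) to 0.30 (G beta and gamma subunits).

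On replating, Ptgfr fell by 3.71 (adjusted p = 4.12e-14), S1pr1, a sphingosine phosphate receptor, by 2.21, and F2r, the thrombin receptor, rose by 0.80. In the cAMP response list 7 fell and 2 rose of 13, against 66.9% and 9.62% of all genes. Fos fell by 4.06 (adjusted p = 8.51e-06) and Ppargc1a by 2.03, whereas Nr4a2 rose by 1.58. In the other RGS list 3 fell and 1 rose of 9: Rgs17 fell by 1.61, Snx14 by 1.90 and Rgs14 rose by 0.46. These genes kept their direction under both other scalings. The counts did not. In the other RGS list 4 rose and 3 fell with quantile normalisation and 6 rose and 2 fell with centring, and in the cAMP response list 4 rose and 5 fell, and 5 rose and 3 fell. Of 8 G alpha subunits, 5 fell and 1 rose as deposited, but 2 fell and 2 rose with quantile normalisation and 0 fell and 4 rose with centring. Gnai3 and Gna11 fell by 0.72 and 0.78, and centring turned them to 0.14 and 0.08, while Gna13 rose by 0.50 under the deposited scale and more under the others. Gng10 and Gpsm2 fell by 1.61 and 1.51 and kept their direction.

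In differentiating control cells, Gnai1, an inhibitory G alpha subunit, fell by 1.51 (adjusted p = 2.33e-08) and Gnai3 by 0.64, whereas Gnao1 rose by 0.53. Of 8 G alpha subunits 1 rose and 3 fell, beside 24.4% and 30.3% of all genes. With quantile normalisation 2 rose and 3 fell, beside 26.5% and 27.9% of all genes, and centring again gave 1 and 3. Grk5, a receptor kinase, rose by 1.09 and Grk6 fell by 0.98. Trio rose by 1.65, Lpar1, a lysophosphatidic acid receptor, by 1.22 and P2ry2, a nucleotide receptor, by 1.08. In the cAMP response list 4 rose and 2 fell of 13, with Sik1 up by 1.89 and Nr4a2 down by 2.00. With IFT88 siRNA, of the 72 pathway genes 0 passed in proliferating, 2 in quiescent, 0 in replated and 0 in differentiating cells; with the block the counts were 1, 11, 5 and 1, against 1.93%, 13.6%, 11.1% and 1.04% of all genes. The 2 were Gng2, a G gamma subunit, lower by 0.82 (SE 0.13, adjusted p = 3.42e-04), and Plcb3, a Gq effector, lower by 0.41 (SE 0.10, adjusted p = 0.0121).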

How the data were processed

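The deposited values were log2 expression of 22690 probe sets on 24 arrays, as the authors deposited them; GCOS, Affymetrix Expression Console and affy are named in the submitters' processing notes, and the normalisation method is not given in the sources used here. Array medians differ between states. Probe sets were named from the platform annotation (20393 with 1 gene, 691 with several, left out). The members, lists and tests were chosen with earlier results of these data known. Group means were compared with limma 3.58.1 in R 4.3.3 (lmFit, eBayes), with 1 coefficient per group over all 24 arrays, and called at an adjusted p under 0.05 (Benjamini-Hochberg). Genes above the array's 40th percentile on at least 3 arrays were tested. In the tested comparisons, genes named from the pathway lists are up to 2 risers and 2 fallers per list with the largest called change. Those named for suspension against proliferating cells were picked after their values were seen. The scripts were tested on simulated data. The number of arrays limits the precision.

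Replicate numbers pair the arrays: deviations from group means of same-numbered arrays of the 2 siRNAs correlated at 0.252 to 0.708 in each state, and those of arrays with other numbers at most at 0.135. The fit without the block is the one reported, with the block as an alternative. Other alternatives were quantile normalisation, median centring, array weights, another filter or none, averaging the probe sets of a gene, only the compared groups, a variance trend, and leaving out each array in turn. Motifs were searched in RefSeq promoters of GRCm38.p6.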

Additional observations from a re-analysis of the deposited data

How the results depend on the processing

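The counts of members called were within 1.5 times the reported count under every alternative run, with 2 exceptions: array weights gave 1 member in proliferating cells with IFT88 siRNA, and the replicate block gave 3 in quiescent cells. The block changed no other count of members. Leaving out 1 array gave 0 in proliferating, quiescent and differentiating cells, 1 in replated cells, 6 between suspension and replating and 5 to 6 between proliferating and differentiating cells. Differences near 0 turned sign: in proliferating cells Rgs2 was -0.081 with array weights, and the mean of probe sets gave 0.021 for Rgs4 and -0.16 for Rgs16; in quiescent cells that mean gave -0.026 for Rgs19 and in differentiating cells -0.0039 for Rgs4; in replated cells quantile normalisation gave 0.014 for Rgs10. Between states, the mean of probe sets kept each direction and moved 6 differences that carry no test, to 6.70 for Rgs5, 2.29 for Rgs4, 1.203 for Rgs3 and -0.58 for Rgs19 in suspension, and to -1.26 and -0.14 for Rgs5 on replating and differentiation. Median centring turned Rgs3 (0.10) and Rgs5 (0.12) between suspension and replating. With 1 array left out, the IFT88 siRNA difference ran from -0.12 to 0.091 for Rgs10 and -0.056 to 0.20 for Rgs16 in replated cells, -0.58 to 0.096 for Rgs2 and -0.22 to 0.26 for Rgs4 there, -0.30 to 0.74 for Rgs2, -0.093 to 0.048 for Rgs4 and -0.032 to 0.11 for Rgs16 in proliferating cells, -0.029 to 0.096 for Rgs19 in quiescent cells and -0.070 to 0.18 for Rgs16 in differentiating cells. The cause was not tested. Dim members (Rgs1, and Rgs5 and Rgs4 in some states) limit what those values show.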
